A study of Mus musculus with 6 samples.

Results

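Imprinted genes are transcribed mainly from a single parental copy, and many of them set the pace of fetal growth. The 10 genes described here are the long noncoding RNAs *H19* and *Meg3* and the protein-coding genes *Igf2*, *Dlk1*, *Cdkn1c*, *Peg3*, *Mest*, *Plagl1*, *Ndn* and *Grb10*, found as the rows of the expression table that carry exactly these names, 10 of 55426 genes in all. The group was picked from results of these same libraries, in which *H19* was known to be higher in the knockout, so the values of the 10 genes are given as a description, and no test of them is used as evidence. All 6 libraries come from abdominal aortas of male mice on the C57BL/6J background that were gavaged with tamoxifen at 75 mg/kg per day for 5 days at 8 to 10 weeks of age, with RNA taken 2 weeks later. The 3 SMKO libraries are of Prdm16SMKO mice, in which both *Prdm16* alleles are floxed and *Myh11*-CreERT2 is present, and the 3 control libraries are of mice that are wild-type for *Prdm16* and carry the same Cre, so both groups had the driver and the drug. The Cre transgene lies on the Y chromosome and is driven by the promoter of smooth muscle myosin heavy chain, so the deletion is aimed at vascular smooth muscle cells (VSMCs) while the RNA comes from the whole vessel wall. Abundance is given as TPM, a length-scaled share of all transcripts in a library, in which both parental copies are summed. In bulk tissue, fewer cells of a type and less RNA per cell cannot be told apart.

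Within this group the best-known pair is *H19* and *Igf2*, neighbours that share enhancers on mouse chromosome 7, where the maternal copy makes *H19* and the paternal copy makes *Igf2*, the fetal growth factor IGF-II. *H19* is abundant in fetal arteries, falls after birth and is known to return in injured arteries. *Dlk1*, a Notch-related membrane protein made from the paternal copy, and *Meg3*, made from the maternal copy, form a like pair on chromosome 12. *Cdkn1c* encodes p57, an inhibitor of cyclin-dependent kinases, *Grb10* an adaptor that restrains the insulin and IGF receptors, *Plagl1* and *Peg3* zinc-finger proteins, *Ndn* a MAGE-family protein of neurons and mesenchymal cells, and *Mest* a protein with a hydrolase fold that is well known from fat and embryonic mesoderm.

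*H19* is annotated at chr7:142575529-142578143 on the minus strand (GRCm38), 72.6 kb from *Igf2* at chr7:142650766-142666816 on the same strand. Its transcript carries the hairpin of miR-675, which lies in an exon in 3 of its 7 annotated transcripts at chr7:142577064-142577147. The hairpin is shown because it is the small RNA that *H19*, the member with the largest log2 fold change of TPM + 0.5, can give rise to. The sequences are from RefSeq (GRCm38.p6), with both mature arms in capitals in the hairpin and the seed, bases 2 to 8, in capitals in each mature form.
mir-675 hairpin: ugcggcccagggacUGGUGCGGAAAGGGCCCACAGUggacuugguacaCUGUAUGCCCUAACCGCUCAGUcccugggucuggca
miR-675-5p: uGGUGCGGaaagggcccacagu
miR-675-3p: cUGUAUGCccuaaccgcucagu
Mature miRNAs lay within 4 of the 10 genes on their own strand (*H19*, *Igf2*, *Meg3* and *Mest*), 9 mature forms with 9 different seeds. The hairpin rows of all 9 were listed at 0 TPM in every library, and libraries of long polyadenylated RNA do not measure mature miRNAs.

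The libraries were first checked against their labels. *Prdm16* stood at 33.4, 36.8 and 30.8 TPM in the control aortas (replicates 1, 2 and 3 in order, here and throughout), against 20.8, 27.7 and 14.8 TPM in the SMKO aortas, groups that did not overlap, with a log2 fold change of -0.70 ± 0.23 (SE) that was not called (limma, adjusted p = 0.376). All 10 VSMC markers were above 0 in every library and summed to 18400 to 30300 TPM in control and 14500 to 22400 TPM in SMKO libraries. Each SMKO library stood apart in markers of some other cell types. The 9 neuron and Schwann cell markers, of which 7 were above 0 in all 6 libraries, summed to 674 TPM in SMKO replicate 1, against 145 and 90.1 TPM in SMKO replicates 2 and 3 and 65.9, 233 and 52.6 TPM in the control replicates. *Th* was at 0 in control replicates 1 and 3 and SMKO replicate 3, and *Snap25* at 0 in control replicate 3 and SMKO replicate 3. The 10 skeletal muscle markers, 8 of them above 0 in every library, summed to 107 TPM in SMKO replicate 1 and to 8.12 to 19.7 TPM in the other libraries, with *Myh4* and *Tnni2* at 0 in some of them. The 9 adrenal markers, of which 2 were above 0 in every library and *Cyp11b2* in none, summed to 104 TPM in SMKO replicate 1 and to 1.18 to 17.9 TPM elsewhere. Most of the 104 TPM came from *Dbh* at 84.6 and *Chga* at 16.1 TPM. *Star* was at 1.52 TPM in that library, within its control range of 0.950 to 1.69 TPM. SMKO replicate 3 was highest in the 8 adipocyte markers, of which 7 were above 0 in every library and *Ucp1* was at 0 in SMKO replicate 2, with a sum of 3930 TPM against 774 and 872 TPM in the other SMKO libraries and 677 to 1550 TPM in control. SMKO replicate 2 was highest in the 8 fibroblast markers, at 2390 TPM against 1310 to 1870 TPM elsewhere, and in the 7 endothelial markers, at 412 TPM against 193 to 254 TPM, with every marker of both lists above 0 in all libraries. The 8 macrophage markers were above 0 in every library and summed to 70.8 to 111 TPM in control and 112 to 205 TPM in SMKO libraries, and the 5 erythroid markers, above 0 in every library, to 1140 to 3170 and 2190 to 19600 TPM, the highest in SMKO replicate 2. Ribosomal RNA of the 45S precursor took 15.6% to 31.4% of TPM and mitochondrial transcripts 15.8% to 27.4%.

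*H19* was the member that separated the groups most. Its 3 control values were 0.530, 2.63 and 3.96 TPM, and its 3 SMKO values were 7.67, 6.67 and 6.31 TPM. Every SMKO library lay above every control library, and the control libraries were the more spread, at 2.37 ± 1.73 TPM (SD, n = 3) against 6.88 ± 0.705 TPM (SD, n = 3). The ratio of the means was 2.90, and the log2 fold change of TPM + 0.5 was 1.60 ± 0.47 (SE), a scale that understates changes of genes at low level. Control replicate 1 weighs on this value: the log2 fold change was 0.98 without it and 2.04 without control replicate 3. It was 1.52 without SMKO replicate 1, the library high in neuron and muscle markers. With array weights, which give less weight to libraries that fit the model less well, it was 2.69.

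*Igf2*, in contrast, was at 17.7, 23.7 and 19.9 TPM in control and 21.0, 22.4 and 16.9 TPM in SMKO replicates 1, 2 and 3. The groups overlapped throughout, with a log2 fold change of -0.02 ± 0.18 (SE). The ratio of *H19* to *Igf2* TPM within a library was 0.0299, 0.111 and 0.199 in control and 0.365, 0.298 and 0.373 in SMKO libraries. In mean it was 0.113 ± 0.0845 (SD, n = 3) and 0.345 ± 0.0416 (SD, n = 3), so *Igf2* remained the more abundant transcript of the pair in all 6 libraries. A ratio within a library does not change when all values of that library are multiplied by the same factor.

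**Figure D1:**
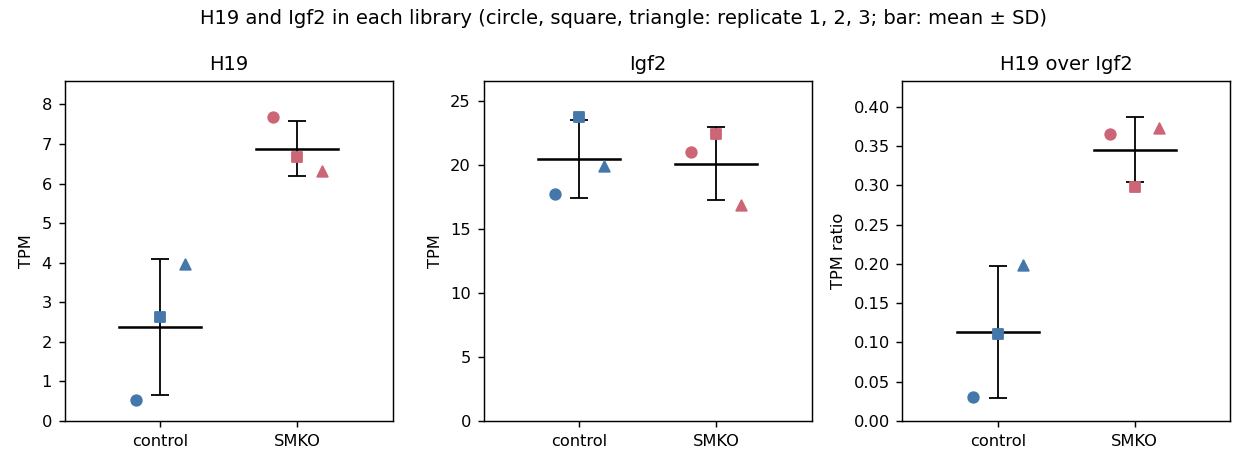
TPM of *H19* and of *Igf2* and the ratio of the first to the second in each library, with replicates 1, 2 and 3 as circle, square and triangle and bars for the mean ± SD of 3 libraries per group. *H19* and the ratio do not overlap between control and SMKO libraries, while *Igf2* does, with means of 20.4 and 20.1 TPM.

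Around *H19* and *Igf2* 4 other genes were tested and 0 called, at a background of 0.355% of all genes called, so nothing is read from a count of 0 over so few genes, here or in the lists that follow. *Mrpl23*, a mitochondrial ribosomal protein gene 34.8 kb from *H19*, averaged 36.2 ± 7.71 TPM in control libraries and 40.9 ± 5.14 TPM in SMKO libraries (SD, n = 3 each), with a log2 fold change of 0.19 ± 0.20 (SE; limma, adjusted p = 0.907). *Lsp1*, a leukocyte actin-binding protein gene, had 0.15 ± 0.17 (SE; adjusted p = 0.922). *Tnnt3*, fast skeletal troponin T, and *Th*, tyrosine hydroxylase of catecholamine neurons, were high in SMKO replicate 1 alone, at 24.6 and 67.6 TPM, and reached at most 4.25 and 8.43 TPM in any other library. *Ins2*, one of the insulin genes, was listed at 0 in every library and *Igf2os* did not exceed 0.120 TPM.

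*Cdkn1c*, the cell-cycle inhibitor at chr7:143458339-143461050 in the neighbouring imprinted domain 880 kb from *H19*, also lay apart between the groups but by a smaller step. Its levels were 19.3, 22.9 and 15.7 TPM in control and 26.0, 25.0 and 24.0 TPM in SMKO replicates 1, 2 and 3. All SMKO libraries were above all control libraries, and the 3 SMKO libraries were close together, at 25.0 ± 1.02 TPM (SD, n = 3) against 19.3 ± 3.61 TPM (SD, n = 3). The log2 fold change was 0.38 ± 0.17 (SE), and it ranged from 0.24 to 0.50 when any 1 library was left out. Of the 10 other genes listed for this domain, 8 passed the expression minimum and 0 were called, beside 0.355% of all genes. *Kcnq1ot1*, the noncoding RNA that silences the domain on the paternal copy, averaged 0.710 ± 0.0889 TPM in control libraries and 0.693 ± 0.0586 TPM in SMKO libraries (SD, n = 3 each). *Phlda2*, an imprinted restrainer of placental growth, was listed at 0 in every library. *Tspan32*, a tetraspanin of blood cells, did not overlap between the groups, at up to 0.310 TPM in control and from 0.670 TPM in SMKO libraries, with an adjusted p of 0.593 by limma. With a control mean of 0.267 TPM, *Tspan32* passed the expression minimum only through its SMKO libraries, so nothing is read from these values.

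The chromosome 12 pair was at opposite ends of the scale. *Meg3*, at chr12:109541001-109571726, was the most abundant of the 10 genes in both groups, at 92.0, 90.9 and 74.9 TPM in control and 111, 70.2 and 52.9 TPM in SMKO replicates 1, 2 and 3. SMKO replicate 1 was the highest library and SMKO replicate 3 the lowest, so the control range lay inside the SMKO range. The log2 fold change was -0.20 ± 0.26 (SE), -0.49 without SMKO replicate 1 and 0.05 without SMKO replicate 3. *Dlk1*, at chr12:109452823-109463336, was the scarcest, at 0.510, 0.440 and 0.0300 TPM in control and 0.400, 1.54 and 1.23 TPM in SMKO replicates 1, 2 and 3. SMKO replicate 1 was below 2 of the control libraries. The log2 fold change of 0.89 ± 0.44 (SE) was 1.56 with a pseudocount of 0.1, and *Dlk1* passed the minimum mean of 0.5 TPM only through its SMKO libraries, since its control mean was 0.327 TPM. *Rian*, the noncoding RNA 32.2 kb beyond *Meg3* on the same strand, was at 37.6, 32.6 and 32.7 TPM in control and 31.0, 30.0 and 22.2 TPM in SMKO libraries. These did not overlap, with a log2 fold change of -0.31 ± 0.17 (SE; limma, adjusted p = 0.720). *Meg3* to *Rian* stood at a TPM ratio of 2.29 to 2.79 in control libraries and of 3.59, 2.34 and 2.38 in the SMKO replicates.

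*Ndn*, a single-exon gene at chr7:62346569-62350262, was at 4.05, 5.15 and 3.39 TPM in control and 8.20, 4.98 and 4.72 TPM in SMKO replicates 1, 2 and 3. SMKO replicate 1 was the highest and the other SMKO libraries lay below control replicate 2. The log2 fold change was 0.44 ± 0.25 (SE) with all libraries and 0.20 without SMKO replicate 1. *Mest*, at chr6:30723547-30748465, was likewise highest in SMKO replicate 1, at 2.93, 1.26 and 1.79 TPM in control and 4.85, 2.35 and 2.06 TPM in SMKO replicates. SMKO replicate 3, the library highest in adipocyte markers, had the lowest *Mest* level of the SMKO libraries. Control replicate 1, the control library highest in adipocyte markers, had the highest *Mest* level of the control libraries. The part of RNA from fat in these values was not tested. The log2 fold change of *Mest* was 0.50 ± 0.36 (SE) with all libraries and 0.17 without SMKO replicate 1. *Copg2*, a coat protein gene that overlaps *Mest*, had a log2 fold change of -0.20 ± 0.18 (SE), and reads of genes that overlap can be divided between them by the counting. *Cep41*, a centrosomal protein gene next to *Mest*, was at 6.09, 6.85 and 5.29 TPM in control and 3.05, 4.25 and 4.14 TPM in SMKO libraries, without overlap, and was not called (limma, log2 fold change -0.61 ± 0.20 SE, adjusted p = 0.397).

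Among the zinc-finger genes, *Peg3* at chr7:6703892-6730431 was at 16.7, 15.3 and 12 TPM in control and 15.7, 11.1 and 8.73 TPM in SMKO replicates 1, 2 and 3. SMKO replicate 1 lay within the control range and SMKO replicates 2 and 3 below it, with a log2 fold change of -0.32 ± 0.23 (SE). The log2 fold change of *Peg3* was -0.54 without SMKO replicate 1 and -0.13 without SMKO replicate 3. *Plagl1*, at chr10:13060504-13131694, was at 3.06, 2.44 and 5.54 TPM in control and 3.29, 3.75 and 3.20 TPM in SMKO replicates. All SMKO libraries lay inside the control range, and the log2 fold change of -0.03 ± 0.28 (SE) was -0.25 without control replicate 2 and 0.27 without control replicate 3. *Grb10*, at chr11:11930508-12038683, was at 17.9, 20.4 and 15.1 TPM in control and 17.8, 20.6 and 15.9 TPM in SMKO replicates, with a log2 fold change of 0.03 ± 0.18 (SE). Its neighbour *Cobl*, an actin nucleator gene, was lower in every SMKO library, at 7.10, 6.84 and 4.94 TPM against 7.76, 7.63 and 9.54 TPM, and was not called (limma, adjusted p = 0.683).

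**Figure D2:**
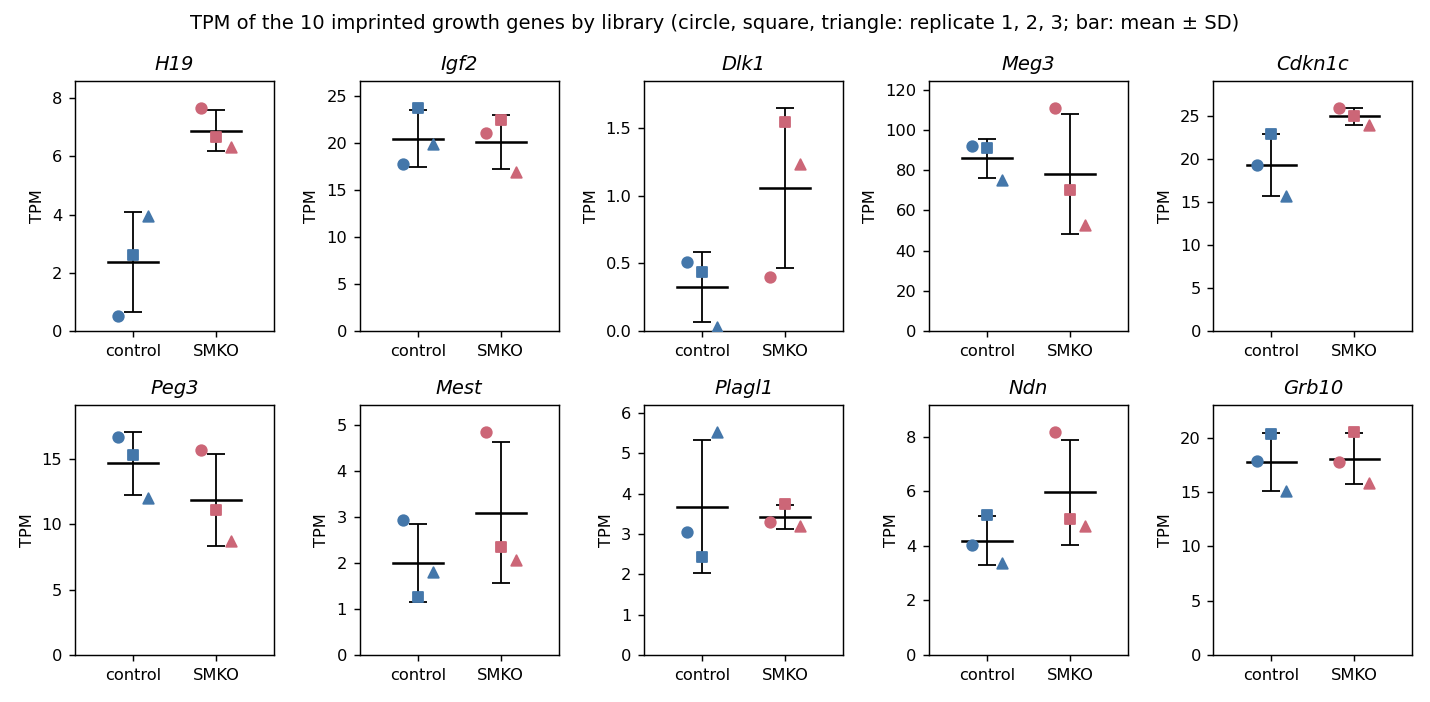
TPM of each of the 10 genes (vertical axes, each from 0) in the 3 control and 3 SMKO libraries, with circle, square and triangle for replicates 1, 2 and 3 and bars for the mean ± SD. The groups are apart for *H19* and *Cdkn1c* and overlap for the other 8 genes.

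In the control aorta the 10 genes fell into 4 levels. *Meg3* stood alone at 85.9 ± 9.56 TPM (SD, n = 3), above 94.0% of the 15775 genes tested. *Igf2*, *Cdkn1c*, *Grb10* and *Peg3* followed at 20.4, 19.3, 17.8 and 14.6 TPM, and each overlapped the next in this order. *Ndn*, *Plagl1*, *H19* and *Mest* lay between 4.20 and 1.99 TPM, again each overlapping the next, and *Dlk1* was below them at 0.327 ± 0.259 TPM (SD, n = 3). In the SMKO aorta *Meg3* was again highest and *Dlk1* lowest, *Cdkn1c* stood above *Igf2* without overlap, and *H19*, eighth in control, was sixth and overlapped *Ndn*, the next below it.

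All 10 genes passed the expression minimum, 6 with a positive and 4 with a negative log2 fold change and a median of 0.20, beside a median of 0.02 over all genes tested. The number called at an adjusted p under 0.05 was 0 of 10, where 0.355% of all genes were called (29 higher and 27 lower in SMKO), and with array weights it was 1, *H19*, where 3.13% of all genes were called. An unadjusted p under 0.05 was reached by 1 of 10, *H19*, beside 8.74% of all genes. The groups did not overlap for 2 of 10, *H19* and *Cdkn1c*, both higher in SMKO, beside 12.8% of all genes, and under quantile normalization the same 2 were apart. Under median-of-ratios size factors, and under TPM rescaled without mitochondrial and ribosomal RNA genes, *Ndn* was apart as well, which made 3 of 10. The 12.8% is for TPM as deposited, and the share of all genes apart under the other scalings was not counted. Because the 10 genes were chosen with this comparison known, nothing is read from these counts.

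**Figure D3:**
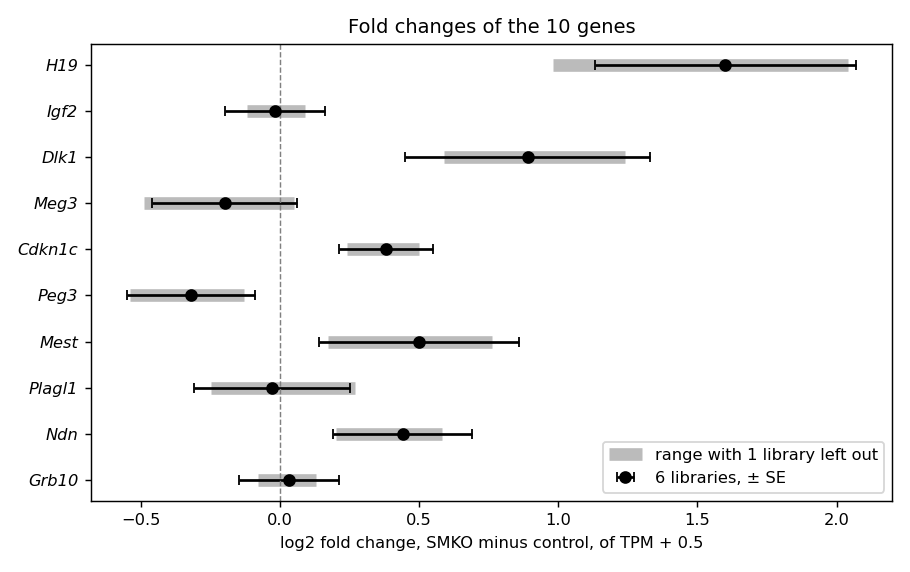
Log2 fold change of TPM + 0.5, SMKO minus control, for each of the 10 genes, with points and bars for the value ± SE from all 6 libraries and grey bands for the range when any 1 library is left out. The band of *H19* runs from 0.98 to 2.04, while the bands of *Igf2*, *Meg3*, *Plagl1* and *Grb10* cross 0.

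Imprinted genes outside the group were followed in a list that, like the 10 genes, was written with earlier results of these data known. Of 67 such genes, 66 matched the table and 45 passed the expression minimum. None of the 45 was called in SMKO against control by limma, beside 0.355% of all genes, and 3 reached an unadjusted p under 0.05, 6.67% beside 8.74% of all genes. With array weights 1 was called, *Nnat*, beside 3.13% of all genes. The log2 fold changes were positive for 25 and negative for 20, with a median of 0.04. *Nnat*, neuronatin, a small membrane protein of neurons and endocrine cells, was at 5.57, 8.20 and 4.18 TPM in control and 20.9, 9.12 and 17.3 TPM in SMKO libraries (log2 fold change 1.3 ± 0.33 SE, adjusted p = 0.223). *Nap1l5*, a brain-enriched histone chaperone relative, was at 3.12, 2.94 and 1.89 TPM in control and 13.6, 3.78 and 4.11 TPM in SMKO libraries (1.08 ± 0.44 SE, adjusted p = 0.526). *Impact*, a regulator of the GCN2 kinase, was at 27.0, 19.7 and 17.9 TPM and 27.7, 34.4 and 31.7 TPM (0.54 ± 0.19 SE, adjusted p = 0.437). None of the 3 overlapped between the groups, which held for 7 of the 45 genes, 15.6% beside 12.8% of all genes tested. Among the 7 is *Tspan32*, which passed the expression minimum only through its SMKO libraries. The most abundant, *Gnas*, *Dcn* and *Cd81*, at mean TPM of 795, 540 and 270, had log2 fold changes of 0.06, 0.20 and -0.12. *Dcn*, the matrix proteoglycan decorin, is also a fibroblast marker. Whether the listed genes are imprinted in the aorta cannot be seen from TPM, in which both parental copies are summed.

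SMKO replicate 1, the library with the highest neuron and Schwann cell, skeletal muscle and adrenal markers, was also the highest library for 5 of the 10 genes, *Meg3*, *Mest*, *Ndn*, *H19* and *Cdkn1c*. It was not the highest for *Igf2*, *Dlk1*, *Peg3*, *Plagl1* and *Grb10*. The share of all genes highest in SMKO replicate 1 was not counted, so nothing is read from 5 of 10. Of the other imprinted genes, *Nnat* and *Nap1l5* had their highest value there, and so did *Snrpn*, a splicing protein gene of neurons, at 32.2 TPM against 10.5 to 16.9 TPM in the other 5 libraries. *Gnas* and *Th* were also highest there, while *Dcn* and *Impact* were highest in SMKO replicate 2. These genes are examples, and the other imprinted genes highest in SMKO replicate 1 were not counted. *H19* and *Cdkn1c* lay there at little distance from SMKO replicates 2 and 3. Without SMKO replicate 1 the log2 fold change of *Nap1l5* was 0.52 and that of *Nnat* 1.06. The 8 macrophage markers summed to 111, 92.8 and 70.8 TPM in control and 112, 205 and 157 TPM in SMKO libraries. Those sums did not overlap between the groups, like *H19* and *Cdkn1c*, while the sums of every other marker list overlapped. The part of RNA from neurons, Schwann cells, skeletal muscle, adrenal tissue or macrophages in these values was not tested.

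**Figure D4:**
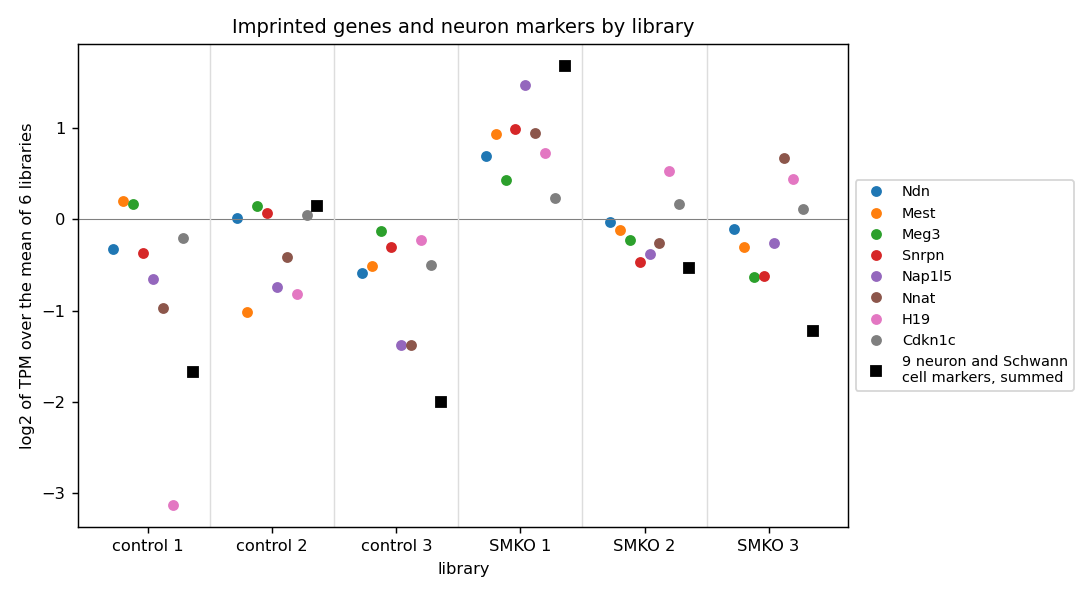
Log2 of TPM over the mean of the 6 libraries for 8 imprinted genes (coloured circles) and for the sum of 9 neuron and Schwann cell markers (black squares), by library. In SMKO replicate 1 all 8 genes and the markers, summing to 674 TPM, lie above 0. In SMKO replicates 2 and 3 the markers lie below 0. *H19* and *Cdkn1c* lie above 0 in those 2 libraries. They are the members whose groups do not overlap, so nothing is read from that. The genes shown were picked for their high values in SMKO replicate 1, so their place there follows from the choice. Of the members not shown, *Igf2* and *Peg3* were above their mean there, and *Dlk1*, *Plagl1* and *Grb10* below it.

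Genes of the IGF axis (ligands, receptors, adaptors, binding proteins, proteinases and their inhibitors, and RNA-binding proteins) were followed in a list of 23 genes, of which 18 passed the minimum. By limma, 1 of the 18 rose and 1 fell in SMKO aortas at an adjusted p under 0.05. Of all genes, 0.355% were called. An unadjusted p under 0.05 was reached by 11.1% of the list, beside 8.74% of all genes. The median log2 fold change was 0.03. The list was written with earlier results of these data known. Its calls are therefore given as a description, and nothing is read from the counts. *Irs2*, the adaptor that passes signals of the insulin and IGF-I receptors to PI3-kinase, was at 25.6, 34.4 and 29.0 TPM in control and 9.85, 10.3 and 10.4 TPM in SMKO replicates 1, 2 and 3. The SMKO libraries were nearly equal and far below the control libraries, with a log2 fold change of -1.49 ± 0.16 (SE; limma, adjusted p = 0.0129). The call was lost without control replicate 2 (adjusted p = 0.0741) and without control replicate 3 (adjusted p = 0.0568), with log2 fold changes of -1.38 and -1.50. *Stc1*, stanniocalcin-1, a secreted inhibitor of the proteinase that frees IGFs from their binding proteins, was at 1.74, 2.3 and 2.35 TPM in control and 6.91, 6.67 and 5.21 TPM in SMKO replicates. All SMKO libraries were above all control libraries, with a log2 fold change of 1.36 ± 0.21 (SE; limma, adjusted p = 0.0416), and the call was lost when any 1 of the 6 libraries was left out (adjusted p 0.0652 to 0.179), with no expression minimum (0.170) and with no trend in the variances (0.0630).

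The receptors and ligands of the axis differed less. *Igf1r*, the receptor through which IGF-II drives growth, had a log2 fold change of -0.12 ± 0.18 (SE), and *Igf2r*, the imprinted receptor that clears IGF-II, of -0.09 ± 0.17 (SE). The ratio of *Igf2* to *Igf2r* TPM was 1.17 to 1.26 in control and 1.16 to 1.32 in SMKO libraries. *Igf1* was at 16.8, 18.4 and 15.0 TPM in control and 15.5, 29.8 and 23.9 TPM in SMKO libraries, with 0.41 ± 0.24 (SE; limma, adjusted p = 0.741). *Irs1*, the sister adaptor of *Irs2*, was at 10.8, 13.2 and 11.1 TPM in control and 7.89, 10.2 and 8.98 TPM in SMKO libraries. Its groups did not overlap and it was not called (limma, log2 fold change -0.36 ± 0.17 SE, adjusted p = 0.644). No overlap held for 4 of the 18 genes tested, *Irs1*, *Irs2*, *Stc1* and *Igfals*, 22.2% beside 12.8% of all genes. *Igfals*, with a control mean of 0.267 TPM, passed the expression minimum only through its SMKO libraries. Binding proteins were the most abundant members of the axis. *Igfbp7*, *Igfbp4* and *Igfbp5* had mean levels of 3190, 143 and 136 TPM and log2 fold changes of -0.09, -0.15 and 0.01.

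**Figure D5:**
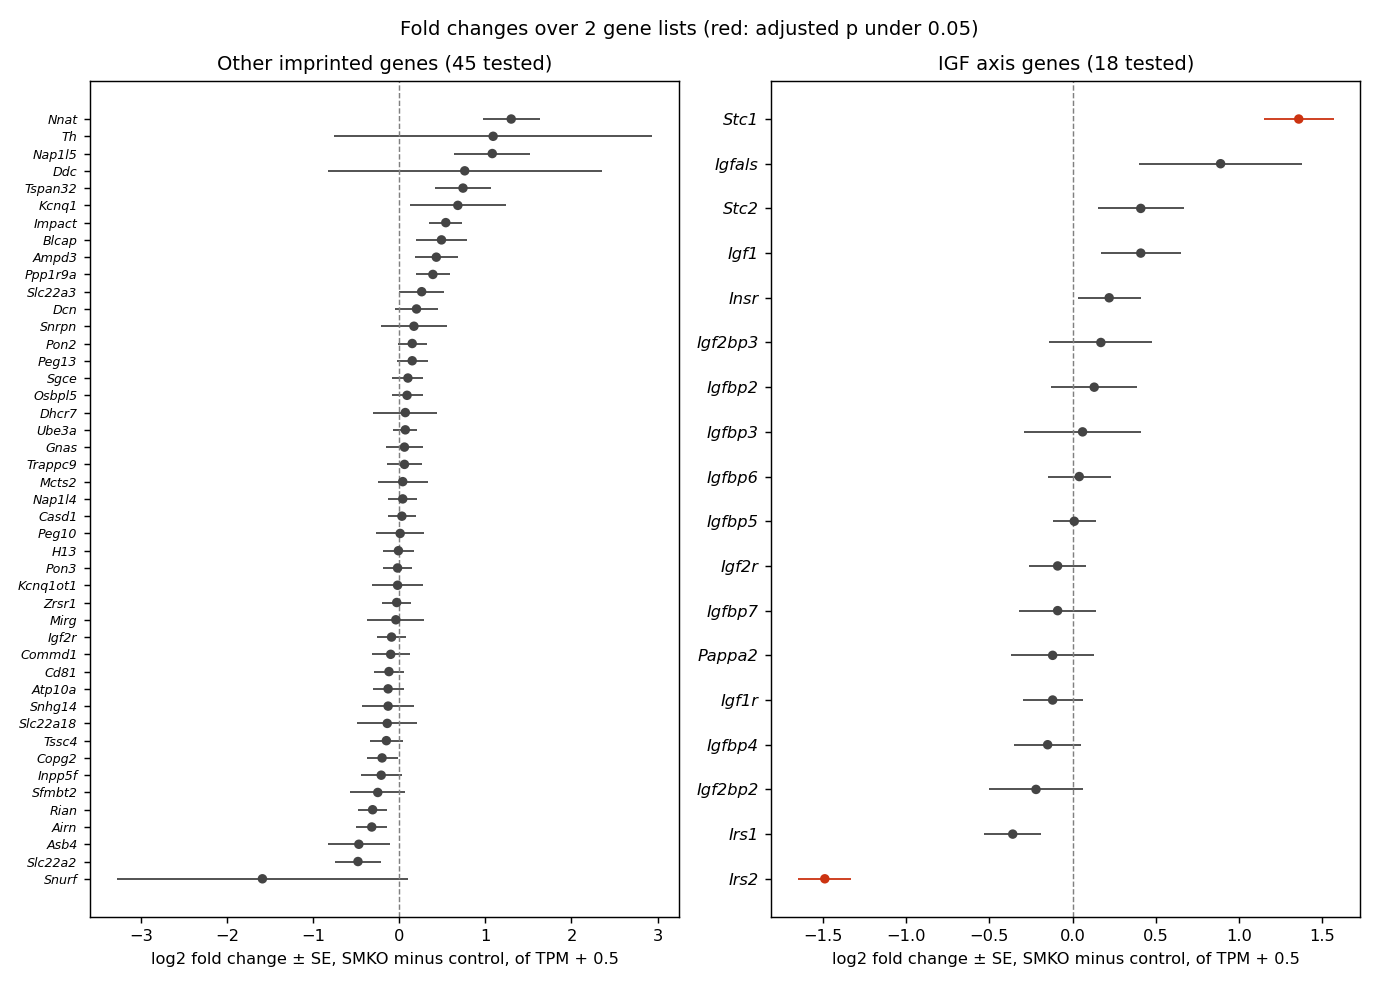
Log2 fold change of TPM + 0.5 ± SE, SMKO minus control, for the 45 other imprinted genes tested (left) and the 18 IGF axis genes tested (right), with genes called at an adjusted p under 0.05 in red. *Irs2* at -1.49 and *Stc1* at 1.36 are the red points, and no point on the left is red.

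Lists related to single members gave 0 calls, beside 0.355% of all genes called. For *Dlk1*, the Notch receptors, ligands and targets numbered 13, of which 12 were tested and none was called by limma. *Notch3*, the Notch receptor of arterial VSMCs, and *Heyl*, a Notch target, reached an unadjusted p under 0.05, 16.7% of those tested beside 8.74% of all genes, with log2 fold changes of -0.40 ± 0.17 (SE; adjusted p = 0.544) and -0.46 ± 0.19 (SE; adjusted p = 0.546). *Notch3* was at 33.0, 40.3 and 28.8 TPM in control and 26.6, 24.4 and 25.6 TPM in SMKO libraries, and was the 1 gene of the 12 without overlap, 8.33% beside 12.8% of all genes. For *Cdkn1c*, 5 of 6 other inhibitors of cyclin-dependent kinases were tested, with 0 called and 0 at an unadjusted p under 0.05. Its closest relatives *Cdkn1a* and *Cdkn1b* had log2 fold changes of 0.17 ± 0.19 (SE) and 0.00 ± 0.17 (SE). Of 11 factors that set or keep imprints 9 were tested, again with 0 called and 0 at an unadjusted p under 0.05. *Ctcf*, which binds the unmethylated control region between *H19* and *Igf2*, averaged 32.0 ± 3.75 TPM in control libraries and 31.3 ± 2.42 TPM in SMKO libraries (SD, n = 3 each).

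The genes whose pattern over the 6 libraries was most like that of *H19* were sought among the 9660 genes that averaged 5 TPM or more, by Pearson's r of log2(TPM + 0.5). The 5 highest were *Otud3*, a deubiquitinase gene, at 0.959, *Gm45799* at 0.947, *Nras*, a RAS GTPase gene, at 0.941, and *1600020E01Rik* and *Actc1*, cardiac actin, each at 0.938. With 6 points that share library and group, these values describe the order only. *Actc1* was at 0.830, 4.95 and 5.10 TPM in control and 7.11, 6.93 and 12 TPM in SMKO libraries, lowest in control replicate 1 as *H19* was.

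RefSeq promoter windows (GRCm38.p6, 300 bases that end just after a transcription start) were matched for 8 of the 10 genes, with 15 windows. They held a median of 13 CpG dinucleotides, beside 7 over all 32851 windows, and the window with the most, 45, was at *Grb10*. Searched on both strands were GGGGCCCC, the motif of the PLAGL1 zinc-finger protein, TATAAA and the E-box CACGTG, and each was held by 1 of the 15 windows: that of *Peg3* (1.08% of all windows), the first of *Meg3* (13.6% of all windows) and that of *Plagl1* (7.15% of all windows). The *Peg3* window is shown for its match to the motif of another member, and the *Meg3* window because *Meg3* was the most abundant of the 10. Capitals mark the matches, which at *Meg3* overlap on the plus and minus strands. The match is a description and not a binding site, and the windows are chr7:6730370-6730669 on the minus strand and chr12:109540746-109541045 on the plus strand.
Peg3 promoter: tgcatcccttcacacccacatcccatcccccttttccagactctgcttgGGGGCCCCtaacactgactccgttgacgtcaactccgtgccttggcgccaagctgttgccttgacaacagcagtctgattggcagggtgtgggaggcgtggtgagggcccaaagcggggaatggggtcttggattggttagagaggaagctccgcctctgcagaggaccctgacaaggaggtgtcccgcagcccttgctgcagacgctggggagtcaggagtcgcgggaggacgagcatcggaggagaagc
Meg3 promoter: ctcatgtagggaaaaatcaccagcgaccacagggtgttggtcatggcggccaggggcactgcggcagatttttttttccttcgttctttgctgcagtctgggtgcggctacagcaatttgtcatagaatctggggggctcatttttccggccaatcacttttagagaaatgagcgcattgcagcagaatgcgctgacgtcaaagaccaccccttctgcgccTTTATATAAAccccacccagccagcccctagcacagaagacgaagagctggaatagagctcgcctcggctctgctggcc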

How the data were processed

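RNA of abdominal aortas was selected for polyadenylated RNA and sequenced by the authors in 6 libraries as 151 bp paired reads, with 40 M read pairs in an average library. Per the labels, the submitters' processing notes name cutadapt 2.3, STAR 2.7.8a, RSEM 1.3.3 and GRCm38. The deposited values are TPM per gene, estimated by the authors, and sum to about 1000000 in each library. They keep no read counts, so the depth behind a value is unknown. Positions are from GENCODE M21 (GRCm38).

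SMKO was compared with control by limma 3.58.1 in R 4.3.3 on log2(TPM + 0.5). The 15775 genes that averaged 0.5 TPM or more over the 6 libraries were tested, with variances following a trend on expression, two-sided p-values and Benjamini-Hochberg adjustment over all genes. The code was tested on simulated data. The labels number 3 replicates per group without saying what separates them, so p-values measure the spread between these samples. The 10 genes and all lists were chosen with earlier results of these data known. Named genes were the 10, *Prdm16*, listed genes that were called or had an unadjusted p under 0.05 at a mean of at least 1 TPM, the 3 most abundant genes of the imprinted and IGF lists, neighbours in the imprinted domains, and the 5 genes most like *H19*. *Irs1*, *Igf1*, *Igf1r*, *Igf2r*, *Igfals*, *Cdkn1a*, *Cdkn1b*, *Ctcf* and *Rtl1* were chosen after their values were seen. Alternatives were pseudocounts of 0.1 and 1, no minimum, a minimum of 2 TPM, 3 other scalings, 3 other variance or weight settings, a replicate block, and each library left out in turn.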

Additional observations from a re-analysis of the deposited data

How the results depend on the processing

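The count of genes called in SMKO against control, 56, moved to 10 with no expression minimum, 153 with median-of-ratios size factors, 129 with quantile normalization, 126 with TPM rescaled without mitochondrial and ribosomal RNA genes, 33 without a trend, 112 with robust estimation, 494 with array weights and 5 to 61 with 1 library left out, 5 of them without control replicate 2. The count of called IGF axis genes, 2, moved to 1 with no expression minimum and with no trend, when *Stc1* was lost, and to 0 to 1 with 1 library left out. With array weights 1 member (*H19*) and 1 other imprinted gene (*Nnat*) were called, against 0 of each. In every other alternative both counts were 0. The cause was not tested. The paper lists more differentially expressed genes from these libraries at the same adjusted p threshold, without naming its test. The counts here are therefore those of this fit to TPM.

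Same-numbered control and SMKO libraries did not deviate together (r of -0.131, -0.11 and 0.0188 for replicates 1, 2 and 3), so the numbers were not taken to pair the libraries. A replicate block left 4 genes called in all, 0 of the IGF axis, 0 other imprinted genes and 0 members, with an adjusted p of 0.102 for *Irs2* and 0.182 for *Stc1*.

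Over the 17 alternatives the log2 fold change of *H19* ran from 0.98 to 2.69 and those of *Cdkn1c*, *Dlk1*, *Mest* and *Ndn* stayed positive and that of *Peg3* negative. *Igf2* and *Plagl1* changed sign in 3 alternatives each, *Grb10* in 2 and *Meg3* in 1. With a minimum of 2 TPM *Dlk1* was not tested. The 3 libraries per group and TPM without counts limit what can be said of members near 1 TPM, such as *Dlk1*.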

Other observations

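*Rtl1*, a retrotransposon-derived gene of the *Dlk1* and *Meg3* domain, was below the expression minimum and so outside the tests. It was listed at 0.450, 0.700 and 0.520 TPM in control and 0.260, 0.190 and 0.260 TPM in SMKO replicates 1, 2 and 3. The groups did not overlap, but at a mean of 0.397 TPM no direction is read from these values. *Snurf* and *Snrpn* are known to share a transcript, and how reads were allocated between them was not tested. *Snurf* was listed at 12.3, 0 and 21.6 TPM in control and 20.4, 0 and 0 TPM in SMKO replicates, while *Snrpn* was between 10.5 and 32.2 TPM in all 6 libraries. The value of *Snurf* alone is uncertain.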
